A study of Mus musculus with 16 samples.

Results

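The accessible chromatin around 10 genes of the circadian clock was examined in pancreatic islets: Arntl, Clock, Per1, Per2, Per3, Cry1, Cry2, Nr1d1, Nr1d2 and Dbp. Peaks of 16 sample lists were merged where they overlapped or touched, and a merged region was assigned to a clock gene when it overlapped the gene body or the 3 kb upstream of it in the GENCODE mouse annotation (release 21) on mm10. This gave 92 clock gene regions of 347712 merged regions on chromosomes 1 to 19, and 21 of the 92 carried a peak in all 16 samples, of 40940 such shared regions in all. The rule that assigns regions to these genes uses position and peak calls, not signal values.

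Islets are the small endocrine organs of the pancreas that hold the insulin-secreting beta cells and the glucagon-secreting alpha cells. The study profiled them by ATAC-seq, a method that tags accessible DNA with adapters through the enzyme Tn5, using females and males of the 8 inbred strains from which Diversity Outbred mice descend. The strains, as labelled, were 129S1_SvImJ (129), A_J (AJ), C57BL/6J (B6), NOD_ShiLtJ (NOD), NZO_HlLtJ (NZO), CAST_EiJ (CAST), PWK_PhJ (PWK) and WSB_EiJ (WSB). The first 5 are classical laboratory strains and the last 3 are wild-derived. Each strain gave 1 female and 1 male sample, each prepared from 50 islets, with no treatment, age or hour of collection in the labels. Because clock genes cycle over the day, the part of the hour of collection in any difference below was not tested, and with 1 sample per strain and sex it cannot be told apart from strain. Reads of all strains were aligned to mm10, a C57BL/6J genome, so fewer reads over strain variants and lower accessibility cannot be told apart either.

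The mammalian clock is a loop of transcription and repression that runs in nearly every cell, islet cells included. ARNTL (also called BMAL1) and CLOCK pair up, bind E-boxes and switch on the Per and Cry genes, whose proteins return to the nucleus and repress that pair. A second loop runs through the orphan receptors NR1D1 and NR1D2 (REV-ERBs), which repress Arntl through ROR elements, and PAR-type factors such as DBP carry the rhythm to output genes through D-boxes. In beta cells the clock is known to time insulin secretion.

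The regions differed widely in how often they were called. Of the 92, 32 (34.8%) carried a peak in 1 sample, beside 46.4% of all merged regions, and 39 in 2 to 15 samples. The 21 shared regions were 22.8% of the 92, beside 11.8% of all. Nr1d2 had the most shared regions, 6 of its 8. Per2 stood at the other end, with 23 regions of which 1 was shared and 13 were called in 1 sample, 9 of those in the 129 female. Clock had 3 shared regions of 19, Arntl 2 of 17, Per1 2 of 9, Cry1 2 of 7 and Cry2 2 of 3. Per3 had 1 of 3, Nr1d1 1 of 2, and the only region of Dbp was shared. Between 23 regions (AJ male) and 63 regions (WSB female) were called per sample.

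**Figure D1:**
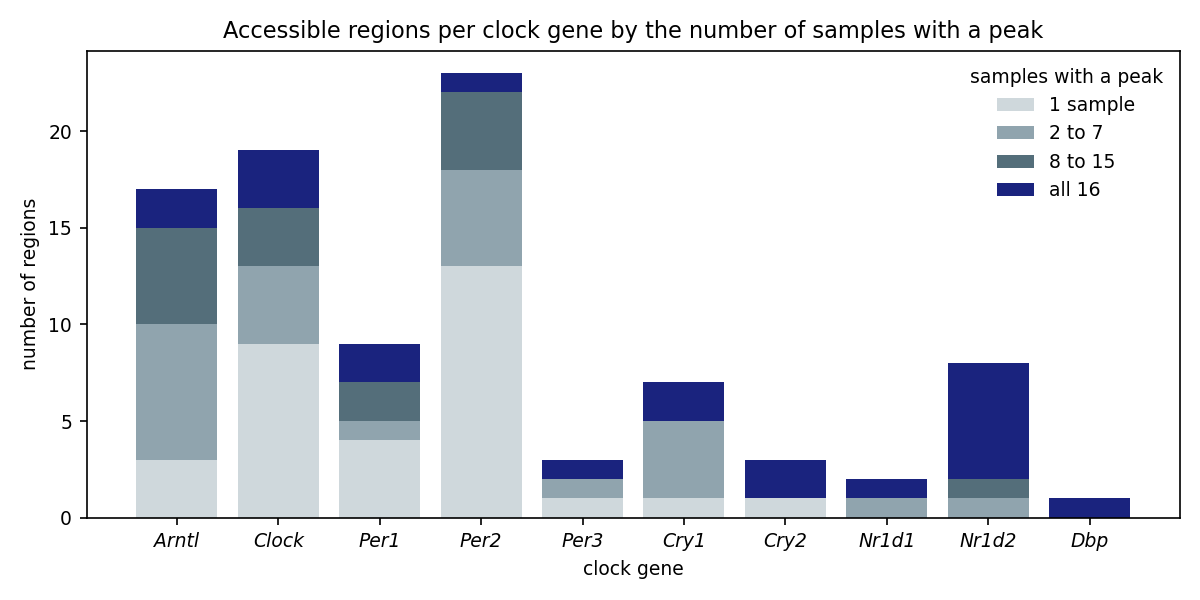
Number of accessible regions at each clock gene (y axis) split by the number of samples with a peak there (shading). Every gene has at least 1 region called in all 16 samples, Nr1d2 has 6, and most regions of Per2 were called in 1 to 7 samples.

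The sample lists held 77887 to 167051 peaks, and the median summit signal over the shared regions ran from 32 (PWK male) to 136 (CAST male). Signal is therefore given as scaled signal, the highest peak summit in a region divided by that median of the same sample. The endocrine markers were open as labelled, with 11 of 12 promoters called in all samples (Sst in 1), whereas 4 of 7 acinar promoters were called in none, and neither a duct nor an endothelial promoter was called in all. Acinar Bhlha15 and leukocyte Cd74 were the exceptions, called in all 16. The 129 female and the NZO male stood apart at promoters. Over all shared promoter regions the median log2 signal relative to the sample median was 1.39 in the 129 female and 1.37 in the NZO male, against 0.67 to 1.15 in the other 14. The NZO male also had the lowest summed signal at the 12 endocrine marker promoters (23.1, against a highest of 36.8 in the 129 female) and the highest at the 5 leukocyte markers (3.73, median 1.02), the 7 acinar (1.35, median 0.737), the 3 duct (1.82, median 0) and the 3 endothelial markers (0.764, median 0.216). Bhlha15, at 1.16, made up most of its acinar sum and Cd74, at 2.85, most of its leukocyte sum. Results that rest on these samples are given with and without them, and the part of cell composition in them was not tested. Islets were profiled in bulk, so fewer cells of a type and lower accessibility per cell cannot be told apart.

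Across strains, 5 of the 21 shared clock gene regions (23.8%) passed the strain test (limma, adjusted p under 0.05), beside 41.7% of all 40940 shared regions. Among the 11 clock gene promoter regions 3 passed, beside 36.3% of shared promoter regions, and among the 10 other regions 2 passed, beside 43.6% of shared regions that were not promoters. The median range between the highest and the lowest strain was 0.97 on the log2 scale over the 21 regions and 1.11 over all shared regions. The 5 regions were a stretch within Nr1d2, the promoters of Nr1d2, Per1 and Nr1d1, and an intron of Cry1. The last of the 5, the Nr1d1 promoter, had an adjusted p of 0.0338, and the next region, an exon-overlapping stretch 25036 bases into Nr1d2, had 0.0572.

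Sequences within these 5 regions are shown because the regions passed the strain test: 250 bases upstream of the transcript start for the 3 promoters and 300 bases around the median summit for the 2 intron peaks, all from the mm10 reference, on the strand of the gene. For Nr1d1 the summits lay inside the gene, outside the bases shown. Capitals mark matches, on either strand, to 5 motifs of the clock: the E-box CACGTG, the E'-box CACGTT, the D-box TTANGTAA, the ROR element core TNGGTCA and the cAMP response element TGACGTCA. The Nr1d1 and Nr1d2 promoters are RefSeq entries (GRCm38.p6) at chr11:98775378-98775627 and chr14:18239107-18239356, both on the minus strand, the last 21 bases of the latter lying in the annotated 5′ UTR, and the Per1 promoter lies before the first GENCODE start at chr11:69094967-69095216, plus strand. The intron windows are chr14:18226264-18226563 (Nr1d2) and chr10:85161797-85162096 (Cry1), minus strand.
Nr1d2 promoter: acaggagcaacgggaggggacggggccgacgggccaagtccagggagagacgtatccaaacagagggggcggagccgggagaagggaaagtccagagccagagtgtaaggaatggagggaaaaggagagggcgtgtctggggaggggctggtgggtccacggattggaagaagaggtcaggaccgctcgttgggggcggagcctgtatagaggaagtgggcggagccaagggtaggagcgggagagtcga
Nr1d1 promoter: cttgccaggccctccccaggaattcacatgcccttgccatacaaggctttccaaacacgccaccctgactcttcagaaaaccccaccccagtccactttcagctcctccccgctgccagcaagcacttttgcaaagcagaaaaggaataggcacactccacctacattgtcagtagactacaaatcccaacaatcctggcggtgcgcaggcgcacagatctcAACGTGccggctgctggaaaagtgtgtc
Per1 promoter: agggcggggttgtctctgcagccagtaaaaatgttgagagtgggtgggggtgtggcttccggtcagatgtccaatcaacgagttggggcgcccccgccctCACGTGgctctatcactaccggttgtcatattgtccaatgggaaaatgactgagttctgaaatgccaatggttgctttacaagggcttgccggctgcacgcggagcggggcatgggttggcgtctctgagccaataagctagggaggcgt
Nr1d2 intron peak: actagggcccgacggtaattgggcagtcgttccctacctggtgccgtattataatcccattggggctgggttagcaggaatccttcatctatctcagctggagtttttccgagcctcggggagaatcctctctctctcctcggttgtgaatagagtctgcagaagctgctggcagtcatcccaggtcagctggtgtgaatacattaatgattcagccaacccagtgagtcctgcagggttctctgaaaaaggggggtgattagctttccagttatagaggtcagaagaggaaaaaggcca
Cry1 intron peak: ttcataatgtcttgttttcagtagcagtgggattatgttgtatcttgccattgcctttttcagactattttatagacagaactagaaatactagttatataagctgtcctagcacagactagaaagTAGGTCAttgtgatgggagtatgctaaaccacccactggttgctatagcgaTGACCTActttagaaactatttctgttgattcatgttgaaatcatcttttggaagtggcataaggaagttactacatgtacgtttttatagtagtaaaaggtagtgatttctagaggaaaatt

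The Per1 window held 1 E-box at position -150 from the start, and the Nr1d1 window 1 E'-box on the other strand at position -28. The Nr1d2 promoter and intron windows held no match to the 5 motifs, and the Cry1 window held the ROR core on both strands, on either side of its centre. Of the 10 genes, 9 (all but Per2) were found among the RefSeq promoters, with 13 entries. A gene was counted when any of its entries matched, whereas the shares of promoters are over single entries. In their 250 upstream bases the E-box was present for Per1 (at a later start) and Cry1, and in 6.02% of all 32851 promoters. The E'-box was present for Cry1, Cry2 and Nr1d1 (3.85% of promoters), the D-box for Per3, which had it at 2 places (2.06%), and the ROR core for Arntl, Per3 and Cry2 (9.19%). The cAMP response element was present for none (1.55%). Of 300-base windows at the 30287 shared regions outside promoters, 12.7% held the ROR core. The windows also differed in how often their bases recur: cut into 10 pieces of 30 bases, the Nr1d2 intron window had 6 pieces with exact copies elsewhere on chromosomes 1 to 19, up to 49 places for 1 piece, whereas all 10 pieces of the Cry1 window occurred once.

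Nr1d2, one of the REV-ERB repressors of Arntl, showed the largest strain difference among the clock genes. The region lay at chr14:18221226-18231399, within the gene and over exons and introns. Scaled signal (female, male) was 3.05 and 3.15 in AJ, 2.81 and 3.14 in B6, 3.26 and 4.00 in NOD, 2.59 and 2.65 in WSB, and 3.25 and 1.53 in NZO. It was 0.586 and 0.768 in 129, 0.698 and 0.676 in CAST, and 0.403 and 0.344 in PWK. All 6 samples of the last 3 strains lay below all 10 samples of the other 5, a split between strains that cuts across the classical and the wild-derived groups.

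The strain test gave a range of 3.21 on the log2 scale (adjusted p = 1.84e-06, limma), larger than that of 99.0% of shared regions. Against the mean of the other 7 strains, PWK was lower by a log2 difference of -2.29 ± 0.23 (SE, adjusted p = 5.05e-06), 129 by -1.37 ± 0.23 (adjusted p = 0.00344) and CAST by -1.34 ± 0.23 (adjusted p = 0.000486). NOD was higher by 1.38 (adjusted p = 0.00272), AJ by 1.12 (0.00934), B6 by 1.06 (0.0157) and WSB by 0.85 (0.0316), each ± 0.23. The SE rests on the spread between the female and the male sample of a strain, after sex was accounted for, pooled over the strains. It is therefore the same for every strain and does not show a strain's own spread. In the order of strain means, NOD 3.63 ± 0.526 (SD, n = 2), AJ 3.10 ± 0.0702, B6 2.98 ± 0.237, WSB 2.62 ± 0.0378, NZO 2.39 ± 1.22, CAST 0.687 ± 0.0153, 129 0.677 ± 0.129 and PWK 0.373 ± 0.0421, the values of AJ and B6, of WSB and NZO, and of CAST and 129 overlapped or crossed, and the other 4 pairs of neighbours did not.

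The place of the highest summit in the region differed as well. In 12 samples it lay 12595 to 12910 bases from the 5′ end, inside an intron, whereas in the CAST samples it lay at 10550 and 10621 bases and in the PWK samples at 17205 and 17681 bases, so that the signal above was read from a different peak there. Restricted to peaks over the 300-base intron window shown above, the 6 samples of 129, CAST and PWK held 0.0968 to 0.768 and the other 10 held 1.53 to 4.00. Of the 10 pieces of this window, 6 had exact copies elsewhere, and the part of these copies in the signal was not tested. The 129 samples had their highest summit at this place, with a low signal. The CAST and PWK samples listed a weaker summit near it. It lay at 12885 and 12824 bases in CAST (female and male, scaled signal 0.292 and 0.191). In PWK it lay at 12567 and 12495 bases (0.0968 and 0.3125). These PWK peaks were near the floor, with summits of 6 and 10 before scaling and a listed −log10 p of 0.679 and 1.47. The NZO male, at 1.53, was the lowest of the high strains and had 84 at the summit before scaling, against 263 in the NZO female. The strain test passed in all 33 alternative analyses in which the region was tested, with adjusted p between 6.78e-09 and 0.00045, and that of PWK passed in all 25 of its own. The other strain differences at this region were each lost in 1 to 4 of 25 alternatives, and that of WSB was lost in 7 of 25 and changed sign in 1, which used the mean signal column.

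**Figure D2:**
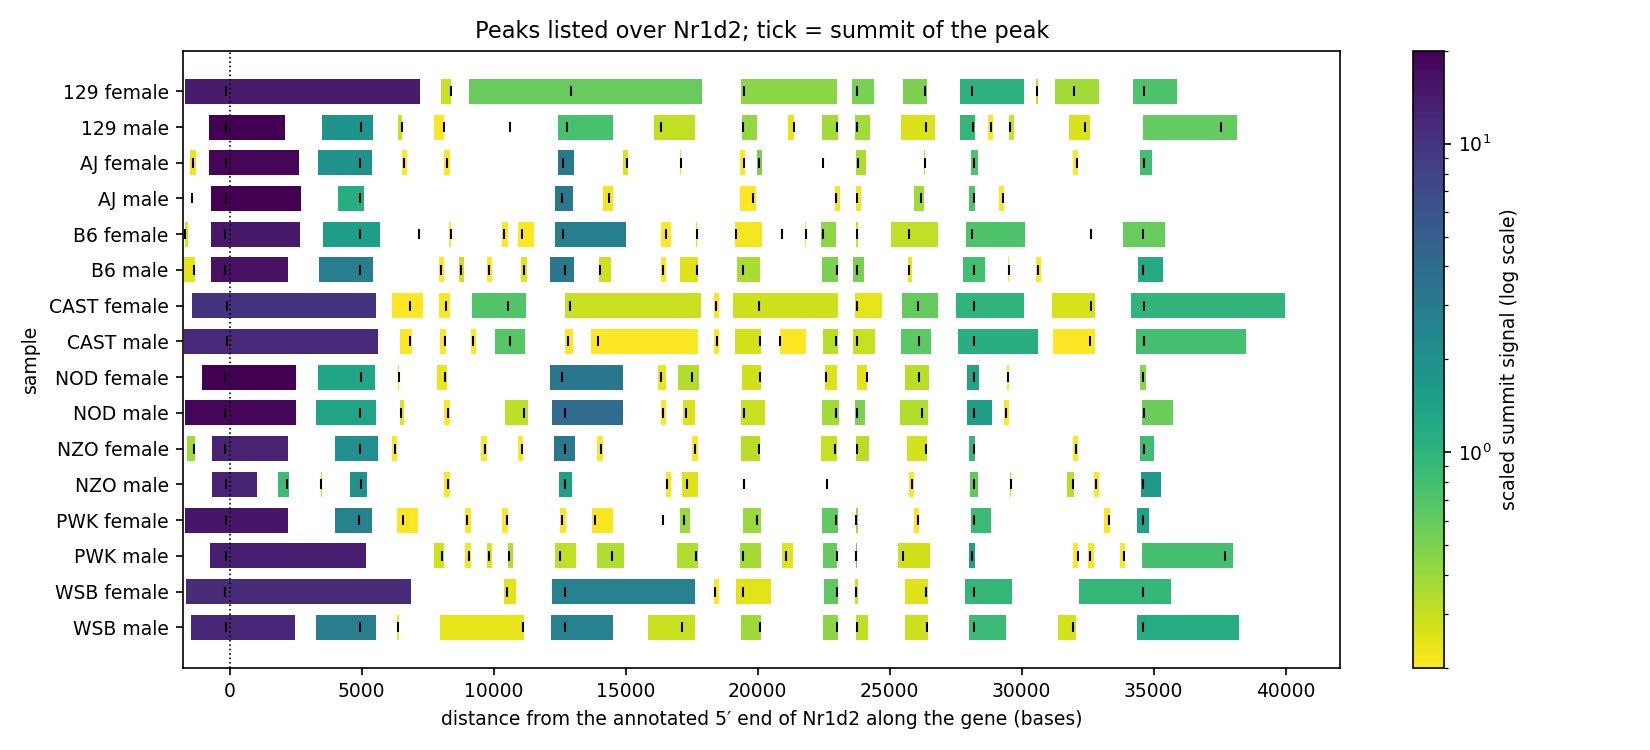
Peaks listed over Nr1d2 in each sample (rows), along the distance from the annotated 5′ end in bases. Bars span the peaks, colour gives the scaled summit signal on a log scale and ticks mark summits. The promoter peak at the start is dark in every sample, and the peak near 12713 bases is dark in AJ, B6, NOD, NZO and WSB and pale in 129, CAST and PWK.

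The Nr1d2 promoter (chr14:18231800-18240890) was the most accessible of the clock promoters, at 10.2 to 20.5 times the sample median, and its mean log2 signal exceeded that of 99.8% of shared regions. Values (female, male) were 18.9 and 20.5 in AJ, 20.1 and 18.8 in NOD, 14.3 and 20.0 in 129, 15 and 16.3 in B6, and 15.5 and 13.7 in PWK. They were 12.9 and 12.9 in NZO, 11.3 and 12.2 in WSB, and 10.2 and 11.7 in CAST. The summit stood within 120 to 186 bases upstream of the 5′ end in every sample. The range of 0.84 on the log2 scale passed the strain test (adjusted p = 0.00199, limma). AJ was higher than the other 7 by 0.45 ± 0.12 (SE, adjusted p = 0.0252) and NOD by 0.44 ± 0.12 (adjusted p = 0.0425), while CAST was lower by -0.50 ± 0.12 (adjusted p = 0.00508). Of 26 alternatives, the AJ call was lost in 6, among them without either AJ sample, with a difference of 0.02 at its smallest. The NOD call was lost in 17, and the CAST call in 6, among them without either CAST sample. The order of the strains depended on scale: with no centring CAST was higher by 0.28 (adjusted p = 0.406), and the strain test was lost with no centring, with quantile normalization and without the variance trend (adjusted p up to 0.25).

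The other 4 shared regions of Nr1d2 did not pass the strain test. They started 19072 to 31146 bases downstream, with scaled signal from 0.177 to 1.67. In the farthest one the summit lay near the 3′ end of the gene in 12 samples and beyond it, at 37520 to 37912 bases, in 4, and in the nearest one it lay at 3 places. In 1 of them, at chr14:18212283-18214091, both CAST samples (0.594 and 0.647) lay above the other 14 (0.177 to 0.5), and CAST was higher than the other 7 by 1.08 ± 0.28 (SE, adjusted p = 0.00962, limma). Signal there was among the lowest 1.62% of shared regions, and the difference was lost without either CAST sample.

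Nr1d1, the paralogue of Nr1d2, had a much weaker promoter region (chr11:98771462-98776189), with scaled signal from 0.745 to 3.07. Values (female, male) were 1.38 and 3.07 in NZO, 2.35 and 1.51 in CAST, 1.5 and 1.33 in 129, 1.43 and 1.07 in B6, and 1.13 and 1.23 in WSB. They were 1.15 and 0.875 in PWK, 1.07 and 0.915 in NOD, and 0.831 and 0.745 in AJ. AJ had the lowest strain mean (0.788 ± 0.0603, SD, n = 2), and both its samples lay below all others. The summit lay not at the 5′ end but 1250 to 1350 bases into the gene in 15 samples and 2228 bases in the PWK female. The strain test gave a range of 1.37 (adjusted p = 0.0338, limma), and no single strain differed from the other 7. The call was lost in 15 of 33 alternatives, with adjusted p up to 0.103, among them leaving out either sample of AJ, CAST, NOD or WSB or the PWK male, and it passed without either NZO sample. The only other Nr1d1 region, which overlaps Thra as well, carried a peak in 3 samples.

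Among the Per and Cry genes, Per1, an E-box target that also responds quickly to cAMP and light signals, was the one with a strain difference at its promoter. The region at the first start (chr11:69093858-69096152) held, as female and male, 2.06 and 5.24 in NZO, 3.28 and 2.65 in CAST, 3.14 and 2.10 in 129, and 1.93 and 1.80 in WSB. It held 2.14 and 1.19 in B6, 1.70 and 1.26 in NOD, 1.53 and 1.06 in PWK, and 1.08 and 1.00 in AJ. The range was 1.65 on the log2 scale (adjusted p = 0.0121, limma), and AJ was lower than the other 7 by -0.95 ± 0.28 (SE, adjusted p = 0.0405), a call lost in 14 of 26 alternatives. The strain call itself was lost in 2 of 34 and passed without either NZO sample. The high NZO mean of 3.65 ± 2.24 (SD, n = 2) came from the male, which was above all other samples, whereas the female lay among those of the other strains. Values of 129 did not overlap those of WSB, and the other 6 neighbouring pairs in the order overlapped or crossed. Relative to the median of all shared promoters of the same sample, the NZO male stood at 1.00 and the 129 female at 0.24 on the log2 scale, the AJ samples at -0.70 and -0.79, and the PWK male, the lowest, at -1.04.

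A second Per1 region, over the later start at chr11:69096762-69101159, ranged from 0.908 (AJ female) to 3.78 (NZO male) and had an adjusted p of 0.0638. It passed in 7 of 34 alternatives. The strongest Per1 region outside promoters, over exons 7211 bases into the gene, was called in 7 samples and reached 0.855 in the NZO male.

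Per2, the repressor whose loss most disturbs the rhythm, ranged from 2.49 (AJ male) to 5.71 (129 female) at its promoter (chr1:91453832-91460973), with a median of 3.43 and an adjusted p of 0.0958. Its summit lay just upstream of the 5′ end in 10 samples and 923 to 965 bases downstream in the other 6, both WSB and both PWK samples among them. Its strongest region outside the promoter by mean signal, in an intron at 11705 bases, was called in 15 samples with at most 0.793, and another intron region, at 16208 bases, was called in 7 samples and reached 1.22 in the NZO male. Per3, thought to have a lesser part in the rhythm, ranged from 1.55 (B6 male) to 3.91 (129 female) at chr4:151043400-151045579 (adjusted p = 0.163). Per3 shares its locus with Camta1, so the Per3 regions cannot be assigned to 1 of the 2 genes. Its other exon-overlapping region was called in 7 samples.

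Cry1, the stronger repressor of the cryptochrome pair, differed between strains in an intron and not detectably at its promoter. The intron region (chr10:85161664-85162166) was weak, with scaled signal (female, male) of 0.580 and 1.58 in NZO, 0.632 and 0.456 in CAST, 0.548 and 0.531 in PWK, and 0.603 and 0.391 in 129. It was 0.595 and 0.361 in B6, 0.311 and 0.352 in WSB, 0.233 and 0.171 in NOD, and 0.138 and 0.218 in AJ. All 4 samples of NOD and AJ lay below the other 12, but their peaks were near the floor. Summits before scaling were 9 and 12 in AJ and 20 and 14 in NOD (female, male), against 17 (PWK male) to 87 (NZO male) elsewhere. The −log10 p listed for these 4 peaks was 0.603 to 1.49, against 2.10 (B6 male) or more elsewhere. Mean log2 signal of the region was among the lowest 7.38% of shared regions. The range was 2.35 (adjusted p = 0.00578, limma), larger than that of 95.3% of shared regions, and the strain call passed without either NZO sample. That call was lost in 2 of 32 alternatives, the mean signal column and regions called in at least 12 samples (adjusted p up to 0.208). AJ was lower than the other 7 by -1.31 ± 0.33 (SE, adjusted p = 0.0229) and NZO was higher by 1.38 ± 0.33 (adjusted p = 0.0228). The AJ difference was lost in 4 of 24 alternatives, among them without either AJ sample, and was -0.23 (adjusted p = 0.633) at its smallest. The NZO difference rested on the NZO male and was lost without it, with a log2 difference of 0.57 to 2.20 over its 24 alternatives.

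The Cry1 promoter (chr10:85183091-85186081) ranged from 1.19 (B6 male) to 4.04 (NZO male), with an adjusted p of 0.223. The Cry2 promoter (chr2:92420089-92435743), belonging to the other cryptochrome, ranged from 3.04 (B6 male) to 6.41 (129 female), with an adjusted p of 0.145. In 9 samples its summit lay just upstream of the 5′ end and in 7 it lay 8414 to 8887 bases downstream, so the wide merged region held 2 peaks. The other shared Cry2 region spanned 31258 bases and reached into Mapk8ip1. Its summit lay beyond the 3′ end of Cry2 in all samples except the B6 female, and its values (1.63 to 3.88) cannot be assigned to Cry2.

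The activators showed no strain difference past the test. Arntl, the core activator without which the clock stops, ranged from 3.23 (B6 male) to 6.90 (129 female) at its promoter (chr7:113206825-113208489), with a median of 4.32. The range between strains was 0.61 (adjusted p = 0.316), larger than that of 8.54% of shared regions. Clock, its partner, ranged from 2.22 (AJ male) to 4.17 (129 female) at chr5:76303299-76306999, with a range of 0.64 (adjusted p = 0.155). The strongest Arntl region outside the promoter (chr7:113239595-113240112, exon-overlapping) was called in 15 samples, all but the AJ male, so the main fit left it out. It was tested only in the alternative of regions called in at least 12 samples, and did not pass there. It held (female, male) 1.52 and 1.04 in B6, 1.16 and 1.55 in NZO, and 0.968 and 1.09 in PWK, all above the other 10 samples (0 to 0.638). The strongest such Clock region, an intron 23557 bases from the 5′ end, was shared and ranged from 0.473 to 1.73 (adjusted p = 0.189), and a shared Arntl intron at 43115 bases from 0.385 to 1.24 (adjusted p = 0.162).

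Dbp, the output factor that binds D-boxes, had a single region (chr7:45702646-45710914) that covered the whole gene and reached into Car11 and Sphk2. It ranged from 2.21 (NOD male) to 5.53 (129 female), with an adjusted p of 0.154. The summit lay just upstream of the 5′ end in 7 samples and 4166 to 4219 bases downstream in 9, among them both samples of AJ, B6, NOD and WSB.

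**Figure D3:**
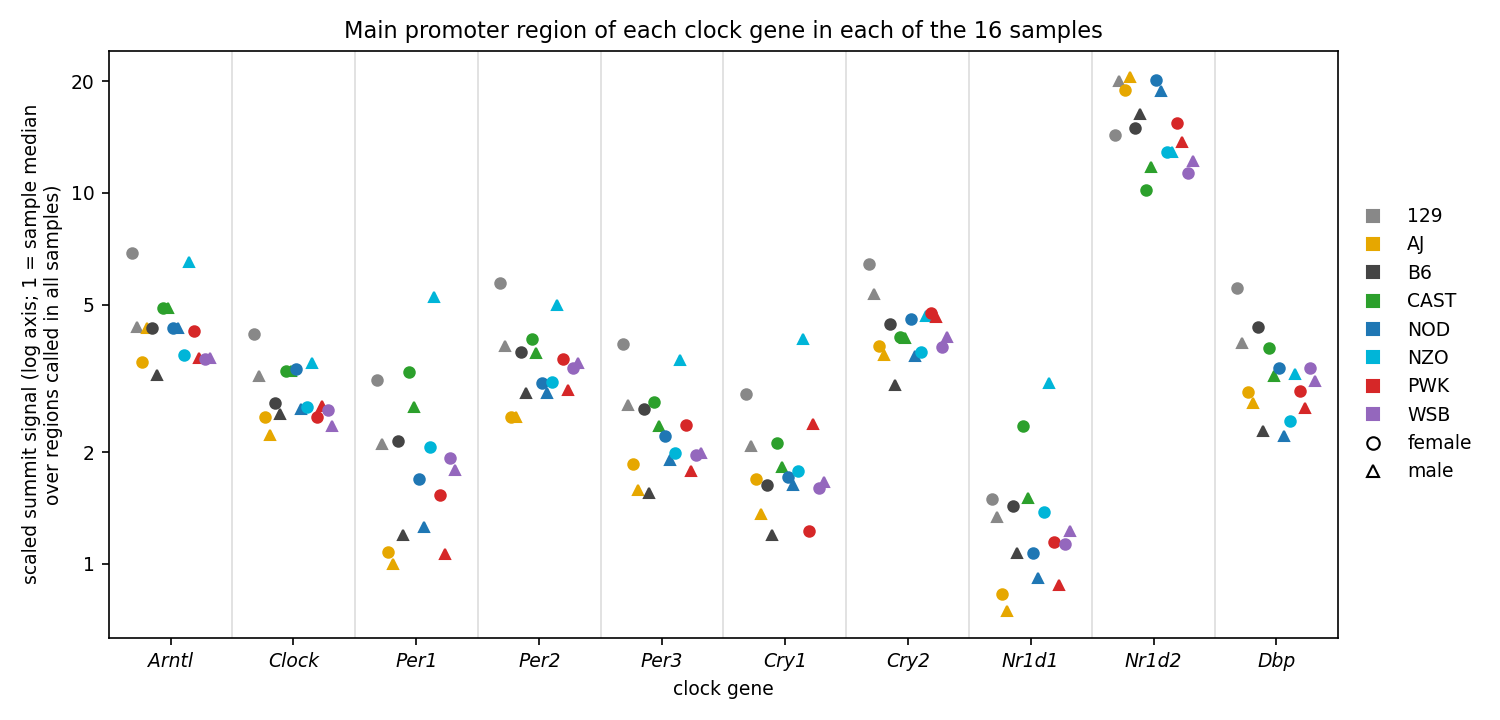
Scaled summit signal (log axis, 1 is the sample median over regions called in all samples) at the main promoter region of each clock gene in all 16 samples, coloured by strain, circles female and triangles male. Nr1d2 stands above the other 9 genes in every sample, and the 129 female or the NZO male is the highest sample at 9 of the 10 promoters.

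**Figure D4:**
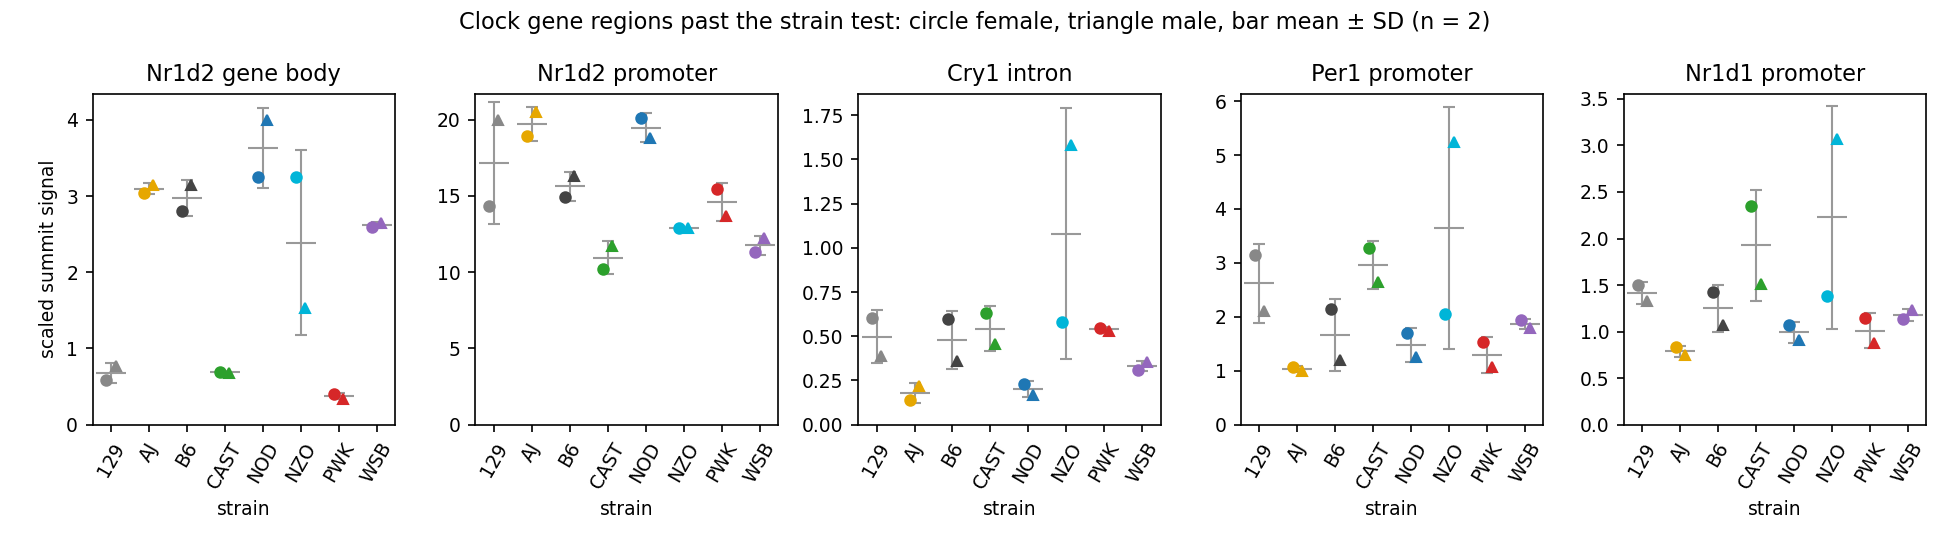
Scaled summit signal by strain at the 5 clock gene regions past the strain test; grey bars are mean ± SD (n = 2). At the Nr1d2 gene body 129, CAST and PWK lie below the other 5 strains, and at the Cry1 intron, Per1 and Nr1d1 the NZO male is the highest sample.

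Of the 10 main promoters, 9 were highest in the 129 female (6) or the NZO male (3), the samples whose promoters were high as a whole. The tenth, Nr1d2, was highest in the AJ male. Without these samples together, an alternative added after seeing the data, 7 of the 21 regions passed the strain test in place of 5, beside 48.2% of all shared regions. Female and male differed most in NZO, with a median absolute log2 difference of 0.82 over the 21 regions against 0.11 (WSB) to 0.46 (129) in the other strains. The count of calls rose to 19 without the NZO female, beside 66.6% of all shared regions, and to 11 without the NZO male, beside 53.7%.

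Of the contrasts of 1 strain with the other 7, 14 passed among the 21 regions. AJ had 4 calls (9.6% of all shared regions passed), CAST 3 (21.7%), NOD 2 (3.86%), and 129 (4.68%), B6 (3.52%), NZO (6.6%), PWK (11.4%) and WSB (7.21%) had 1 each. AJ was lower at Per1 and the Cry1 intron and higher at both Nr1d2 regions. Of the 14, 7 were at the Nr1d2 gene body. These contrasts share samples, so they are not independent of one another. By class, none of the 21 regions passed between wild-derived and classical strains (limma on strain means, smallest adjusted p = 0.306), beside 0.0342% of shared regions. Over all shared regions 14 passed, 14 also without the variance trend, and 5072 had an unadjusted p under 0.05. Of the clock regions 3 had an unadjusted p under 0.05: a Clock intron at 14779 bases (wild-derived minus classical 0.59 ± 0.22, SE), the Nr1d2 promoter (-0.44 ± 0.17) and the Nr1d2 gene body (-1.29 ± 0.59).

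**Figure D5:**
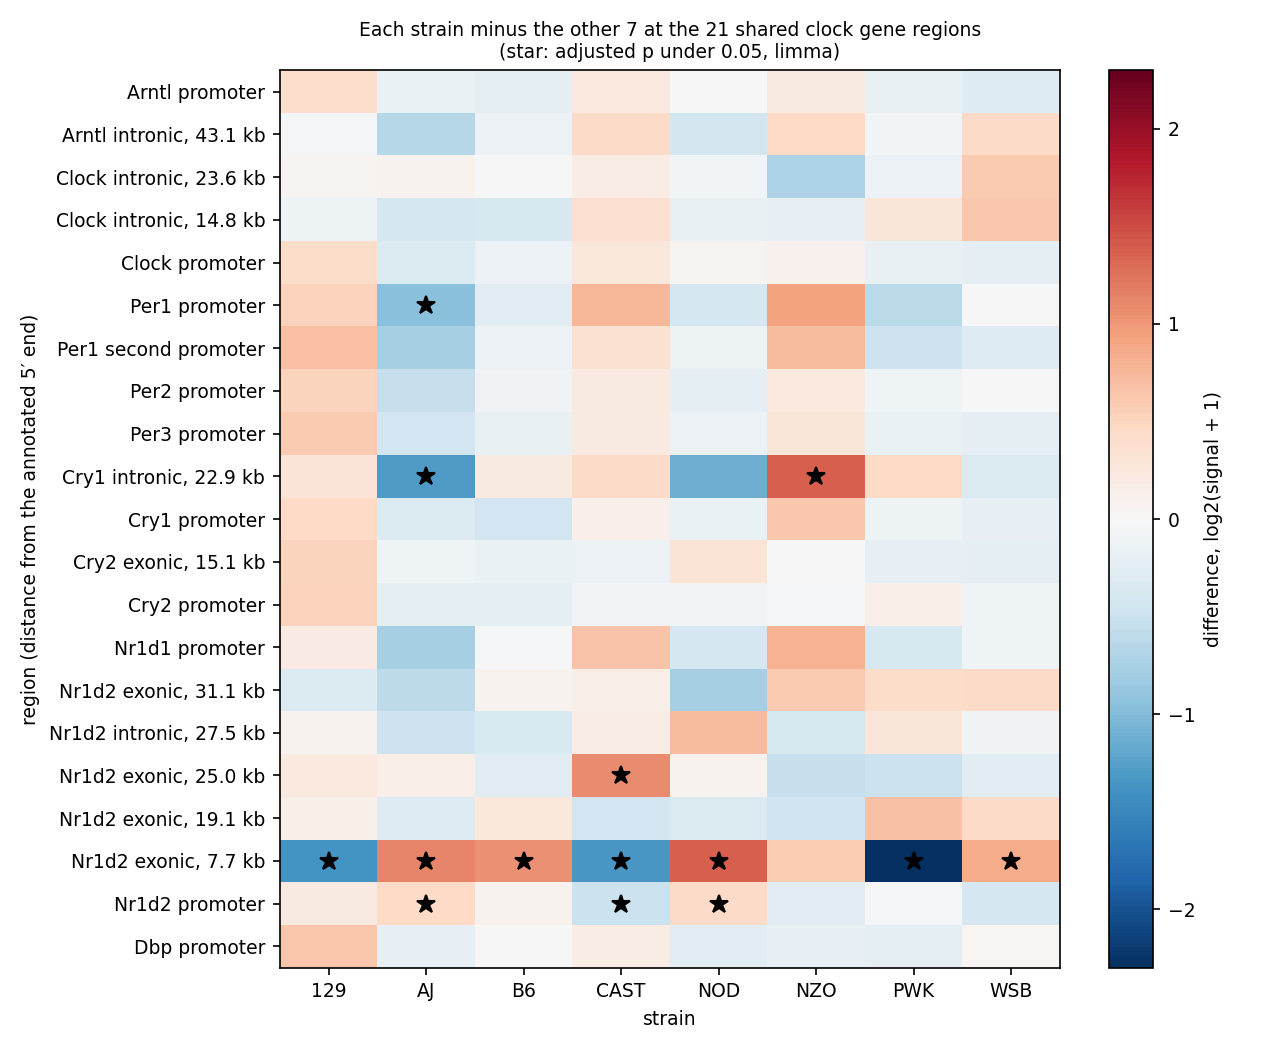
Difference between each strain (columns) and the mean of the other 7 at the 21 shared clock gene regions (rows), in log2(signal + 1) after centring, red higher and blue lower; stars mark adjusted p under 0.05 (limma). Of the 14 stars, 7 are in the row of the Nr1d2 gene body.

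Between the sexes, none of the 21 regions passed (limma, smallest adjusted p = 0.999), beside 0% of all 40940 shared regions, of which 1619 had an unadjusted p under 0.05 and 0 passed without the variance trend. Dbp was the 1 clock region with an unadjusted p under 0.05 (0.0429), with females higher than males by 0.28 ± 0.13 (SE, log2) on average and in 7 of 8 strains. The Per1 promoter was likewise higher in the female in 7 of 8 strains, all except NZO, with a mean difference of 0.19 ± 0.18 (SE).

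Other genes of the pathway were followed in the same way: 20 further activators, repressors, output factors and regulators of protein stability, with 239 regions. Of these, 30 regions of 16 genes were shared, none of them at Arntl2, Csnk1d, Csnk1e or Timeless, and 9 (30%) passed the strain test, beside the 41.7% of all shared regions. Among their 17 shared promoter regions 6 passed (35.3%), beside 36.3% of all shared promoter regions, and the median strain range of the 30 regions was 0.96 on the log2 scale, beside 1.11 over all shared regions. Rorb, an activator at ROR elements, was highest in NOD (6.64 and 6.65) and lowest in B6 by strain mean (2.73 and 3.39; adjusted p = 0.00794), a call lost in 2 of 34 alternatives, without both NOD samples and with the mean signal column. Fbxw11, a subunit of the ubiquitin ligase that marks PER proteins for decay, was lowest in PWK (1.66 and 1.56, against 2.57 to 4.42 in the other strains; adjusted p = 0.00911), a call lost in 3 of 34, among them without the PWK male.

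Nfil3, a repressor at D-boxes, was lowest in AJ (1.29 and 1.49, against 2.06 to 3.40 elsewhere; adjusted p = 0.0142). The Nfil3 call was lost in 3 of 34 alternatives: without the AJ female, without both AJ samples and with the mean signal column (adjusted p up to 0.465). Tef, a relative of Dbp, was lowest in AJ (0.615 and 0.345) and highest in the NZO male (2.71) at its second promoter region (adjusted p = 0.0174). The Tef call was lost in 5 of 33 alternatives, among them without the AJ male and without the CAST female, with adjusted p up to 0.225. The main promoter region of Tef, which held more signal (1.23 and 1.24 in AJ, 3.78 in the NZO male), did not pass the strain test. Bhlhe40, a repressor at E-boxes, was highest in AJ (8.60 and 8.33; adjusted p = 0.0361). That call was lost in 15 of 34 alternatives, among them leaving out either sample of AJ, CAST, NOD or WSB, with adjusted p up to 0.404.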

How the data were processed

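ATAC-seq was performed on islets of 8 strains with 1 female and 1 male sample each. According to the submitters' processing notes, cutadapt 2.0, Bowtie2 2.3.4.1, Picard 2.9.2 and SAMtools were used, and reads were aligned to mm10. The authors used MOSAiCS to call peaks sample by sample (false discovery rate 0.05), and a shift of reads for the transposase is not given in the sources used here. The deposited lists give each peak's summit signal, a mean signal and a −log10 p, none scaled to depth. The deposited lists hold no read totals or read counts, so no counting interval is given. The deposited strain lists add an irreproducible discovery rate (IDR) as a score, used at 0.05 only to count regions.

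Peaks on chromosomes 1 to 19 were merged across the 16 lists. Annotation was GENCODE release 21. A promoter reached from 1000 bases upstream to 100 downstream of a coding transcript's start. The highest summit per region and sample was converted to log2(signal + 1) and centred on the sample median over regions called in all samples. A fold on this scale understates the change of low signals. Because the values are not read counts, limma 3.58.1 (R 4.3.3) was fitted over all 40940 such regions with strain and sex as terms and a variance trend, with Benjamini-Hochberg adjustment and a threshold of 0.05. Class was tested on strain means. The script was tested on simulated data. The groups are strains. Outside the class test, the p-values measure the spread between the female and male samples of a strain, pooled over the strains. A strain's own spread therefore does not set its SE. Nothing in the labels says whether a sample pooled animals. Tables and plots used Python 3.11.15, pandas 2.3.3, numpy 2.4.6 and matplotlib 3.10.9. Motifs were searched in the RefSeq promoter table and in mm10.

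The genes, the pathway list and the marker lists were chosen with earlier results of these data known. Named were the main promoter of each gene, every clock gene region past the strain test, the strongest region of each gene outside promoters, and the 5 pathway genes with the smallest adjusted p at a promoter. The other shared regions were described after their values were seen.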

Additional observations from a re-analysis of the deposited data

Results flagged for a closer look

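Groups of 8 samples of 1 sex were examined at the 21 shared regions by Dixon's criterion, which chance meets in about 1 in 20 groups of like samples. Each group held 8 different strains and the groups share samples, so that rate does not carry over to them. In 10 of the 42 groups, 1 sample lay far from the rest. In 5 of them the sample was the NZO male, with a scaled signal of 5.24 at the Per1 promoter (other males 1.00 to 2.65), 3.78 at the second Per1 promoter region (1.04 to 1.81), 1.58 at the Cry1 intron (0.171 to 0.531), 4.04 at the Cry1 promoter (1.19 to 2.38) and 3.07 at the Nr1d1 promoter (0.745 to 1.51). In 3 it was the 129 female, with 6.90 at the Arntl promoter (other females 3.51 to 4.90), 3.91 at the Per3 promoter (1.86 to 2.73) and 6.41 at the Cry2 promoter (3.72 to 4.74). The remaining 2 were CAST samples, the female with 2.35 at the Nr1d1 promoter (other females 0.831 to 1.5) and the male with 0.647 at the exon-overlapping Nr1d2 region 25036 bases into the gene (other males 0.182 to 0.382).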

How the results depend on the processing

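The strain test at clock gene regions gave 5 calls, and 26 of 35 alternatives stayed within 1.5 times of that. The others gave 2 (regions called in at least 12 samples), 0 (at least 50 percent of the region covered, which left 1 region) and 3 (mean signal column). They also gave 18 (no centring) and 13 (without strain NZO, beside 56.5% of all shared regions). The stricter peak threshold gave 3, but the Cry1 intron and the Nr1d1 promoter were not tested under it. Promoter regions alone gave 3, the promoters that passed in the main fit. Leaving out 1 sample gave 4 to 19, with 19 without the NZO female and 11 without the NZO male. The contrasts with the other 7 strains gave 14 calls, against 0 (50 percent covered), 6 (mean signal column), 39 (no centring), 3 (promoter regions alone) and 22 (without the NZO male and the 129 female). Leaving out 1 sample gave 8 to 40: 9 and 8 without the AJ female and male, 9 without either CAST sample, 40 without the NZO female and 30 without the NZO male. The pathway genes gave 9 calls, against 2 (50 percent covered), 5 (mean signal column) and 26 (no centring). Promoter regions alone gave 5, where 6 promoter regions passed in the main fit. The count was 4 without strain AJ, 5 without strain CAST and 17 without strain NZO, the last beside 56.5% of all shared regions. Leaving out 1 sample gave 4 to 20: 5 without either AJ sample, 4 without the CAST female, 20 without the NZO female and 14 without the NZO male. The sex and class tests gave 0 calls in all 35 alternatives each. Of the 21 regions called in all samples, 1 remained with 50 percent covered, and 13 had a peak in the IDR lists of all 8 strains. Counts in this paragraph without a share over all shared regions cannot be read as changes at clock genes. With promoter regions alone, a stricter threshold or 50 percent covered, fewer regions were tested, also for the contrasts and the pathway genes. With regions called in at least 12 samples, more regions were tested.

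The difference of WSB at the Nr1d2 gene body became -0.24 with the mean signal column, and that of CAST at the Nr1d2 promoter 0.28 with no centring. Beyond the alternatives that leave out samples or change the regions tested, the cause was not tested. The fit without the variance trend, promoter regions alone and leaving out the NZO male with the 129 female were chosen after seeing the data. The sex test compares the female and the male within each strain, because strain is a term of the model. No other pairing was possible, because the replicate number stands for sex, which is already a term as well.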
